A study of Mus musculus with 21 samples.

Results

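The 10 genes described here encode inflammatory products of myeloid cells: the cytokines Tnf, Il1a and Il1b, the IL-1 antagonists Il1rn and Il1r2, the chemokines Cxcl2, Ccl3 and Ccl4, the growth factor Csf1 and the enzyme Acod1. They were taken by gene symbol from 45706 genes counted in each of 21 RNA-seq libraries of a mouse model of juvenile myelomonocytic leukemia, a childhood myeloid neoplasm. All 10 passed the filter on low counts, which kept 19555 genes. The genes were chosen by their difference between spleen S3 and spleen MxCre libraries, which was already known, so that every value of those 2 groups in the spleen is given below as a description without a test.

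Libraries were made from 3 fractions, namely LSK cells of the bone marrow (BM) and CD11b+ cells of either BM or spleen. LSK cells are lineage-negative, Sca1+ and cKit+ stem and progenitor cells obtained by lineage depletion and sorting, and CD11b+ cells are myeloid cells isolated on magnetic columns. Each fraction held 2 libraries of MxCre mice, 2 of Ptpn11D61Y/+ mice and 3 of S3 MxCre;Ptpn11D61Y/+ mice. All mice received poly I:C, an interferon inducer that switches on the Mx promoter driving Cre, according to the study's methods. MxCre mice carry the recombinase with normal Ptpn11, the gene of the phosphatase SHP2. Ptpn11D61Y/+ mice carry no Cre, so that a stop cassette keeps the mutant allele silent and a single functional allele remains. In MxCre;Ptpn11D61Y/+ mice, Cre removes the cassette in hematopoietic cells and in other cells that respond to interferon, and S3 denotes the terminally ill stage. Animals 540 and 815 gave libraries of all 3 S3 fractions, animal 640 gave BM and spleen CD11b+ libraries, and animal 768 gave an LSK library. Ages are not stated in the labels, and nothing in them says whether control libraries with the same number came from the same mouse.

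Total counts ran from 34992610 to 104509425 per library. Expression levels are log2 CPM, the logarithm to base 2 of counts scaled to library size (CPM) with TMM factors and a prior count of 2, and a difference of 1 on this scale is a doubling. A gene was called at an adjusted p under 0.05 in edgeR's quasi-likelihood test over all 19555 genes, with Benjamini-Hochberg adjustment. In bulk libraries such as these, fewer cells of a type and less RNA per cell cannot be told apart.

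The markers of the labelled cell types were measured in each fraction. The 10 stem and progenitor markers, among them Mecom and Kit, summed to between 1145 and 1905 CPM in LSK libraries and to between 28 and 544 CPM in CD11b+ libraries. The 12 mature neutrophil markers, led by S100a9 in most libraries, summed to between 31188 and 150392 CPM in BM CD11b+ libraries. The spleen CD11b+ libraries of Ptpn11D61Y/+ mice departed from this, with 4999 and 9210 CPM of neutrophil markers against 44832 to 141374 CPM in the spleen libraries of the other genotypes. The LSK libraries of MxCre mice held 3255 and 2781 CPM of them, above the 349 to 1664 CPM of the other LSK libraries. The CD11b gene Itgam, its partner Itgb2 and the pan-leukocyte gene Ptprc together reached 779 CPM in BM MxCre library 1, 827 CPM in BM MxCre library 2 and 564 CPM in BM S3 animal 815, while the other BM CD11b+ libraries held 1860 to 3070 CPM and LSK libraries 241 to 530 CPM. Scaled by library totals alone, a setting added after seeing the data, the first 3 were at 543, 596 and 425 and lay within the 352 to 744 of LSK libraries. Spleen Ptpn11D61Y/+ library 1 stood apart by a mitochondrial share of 3.79% of its counts, against 0.165% to 1.10% in the other 20 libraries.

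Single libraries decided several results for these genes. BM MxCre library 1 and both spleen MxCre libraries were the 3 highest of the 14 CD11b+ libraries for 9 of the 10 genes. Il1a was the exception, where spleen Ptpn11D61Y/+ library 1 took the place of BM MxCre library 1. High values in both spleen MxCre libraries were favored by the choice of the list, which used them. The mean standardised level of the 10 genes was 1.40 in BM MxCre library 1, 1.43 in spleen MxCre library 1 and 1.89 in spleen MxCre library 2, and lay between -0.92 and 0.20 in the other 11 libraries. The lowest of these was BM MxCre library 2, the other library of the same group. The number of detected genes was 14885 in BM MxCre library 1, 14641 in spleen MxCre library 1 and 14761 in BM S3 animal 815, against 17493 to 24220 elsewhere. A count of 0 was found in these 3 libraries for 190 of 10714, 102 of 10931 and 59 of 10714 genes whose fraction median reached 2 CPM by library totals. The main comparisons with BM MxCre libraries are therefore also given without them.

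IL-1α and IL-1β, the products of Il1a and Il1b, signal through a receptor made of Il1r1 and Il1rap. Il1rn encodes a soluble antagonist that occupies this receptor without signaling, and Il1r2 encodes a decoy receptor that binds IL-1 but lacks the signaling domain. TNF and the IL-1 cytokines activate NF-kB, which in turn drives transcription of many of these genes in macrophages, monocytes and neutrophils. Cxcl2 attracts neutrophils through Cxcr2, Ccl3 and Ccl4 attract leukocytes, Ccl3 in part through Ccr1, Csf1 sustains monocytes and macrophages through Csf1r, and Acod1 makes the metabolite itaconate in activated macrophages.

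The sequences upstream of the start sites of the 10 genes were read from RefSeq (GRCm38.p6). Promoters were found for 9 of the 10 genes, and Il1rn has 3, which gives 11 promoters. The NF-kB motif, GGG and CC with any 5 bases between them, searched on both strands like the other motifs, was present in the 250 bases before the start in 6 of 11 promoters (54.5%) and in 45.8% of all 32851 promoters. The TATAAA motif was present in 4 of 11 (36.4%), those of Acod1, Il1a, Il1b and Tnf, against 12.4% of all promoters, and the AP-1 motif TGANTCA in 2 of 11 (18.2%) against 6.75%. A match of letters is not evidence of binding. The sequences are the 210 bases that end 40 bases before the start, written 5′ to 3′ on the strand of the gene with NF-kB matches in capitals, for 4 genes with a match in this stretch and for Il1b, the more abundant IL-1 ligand per length in every group, which has none. Cxcl2 and Csf1 each hold an 11-base run made of overlapping matches on both strands.
Cxcl2 (chr5:90903649-90903858, plus strand): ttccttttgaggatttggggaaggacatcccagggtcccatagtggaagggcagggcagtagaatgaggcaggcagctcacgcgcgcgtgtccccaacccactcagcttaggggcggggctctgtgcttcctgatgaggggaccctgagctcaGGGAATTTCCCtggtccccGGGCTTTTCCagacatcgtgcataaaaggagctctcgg
Csf1 (chr3:107760510-107760719, minus strand): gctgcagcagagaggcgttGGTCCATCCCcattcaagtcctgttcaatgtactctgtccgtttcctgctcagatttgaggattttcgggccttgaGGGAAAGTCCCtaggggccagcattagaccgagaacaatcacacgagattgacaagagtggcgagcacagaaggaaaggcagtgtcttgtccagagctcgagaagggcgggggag
Tnf (chr17:35202048-35202257, minus strand): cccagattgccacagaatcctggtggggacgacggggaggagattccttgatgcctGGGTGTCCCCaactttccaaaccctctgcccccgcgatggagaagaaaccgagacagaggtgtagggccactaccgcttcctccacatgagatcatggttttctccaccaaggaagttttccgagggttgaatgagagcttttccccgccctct
Acod1 (chr14:103046762-103046971, plus strand): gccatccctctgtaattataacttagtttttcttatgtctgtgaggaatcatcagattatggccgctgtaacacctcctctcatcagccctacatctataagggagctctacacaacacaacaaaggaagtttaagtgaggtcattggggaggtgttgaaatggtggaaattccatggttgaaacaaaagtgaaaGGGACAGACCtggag
Il1b (chr2:129371180-129371389, minus strand): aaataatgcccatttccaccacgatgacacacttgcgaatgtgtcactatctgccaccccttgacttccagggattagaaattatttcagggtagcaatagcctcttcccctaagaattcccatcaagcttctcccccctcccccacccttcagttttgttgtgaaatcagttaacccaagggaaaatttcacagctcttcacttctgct

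The IL-1 ligands were found mainly in CD11b+ cells, Il1b in both organs and Il1a in the spleen. Il1b (ENSMUSG00000027398; GRCm38 chromosome 2, 129364570 to 129371139) was at 2.94 and 3.40 log2 CPM in the MxCre LSK libraries, at -0.72 and -1.69 in those of Ptpn11D61Y/+ mice, and at 1.26, 1.80 and 2.96 in those of S3 mice. In BM CD11b+ cells its level was 11.97 and 7.60 in MxCre, 8.35 and 8.11 in Ptpn11D61Y/+, and 8.02, 7.26 and 8.11 in S3 libraries. Apart from BM MxCre library 1, the 6 BM CD11b+ libraries thus lay within 7.26 to 8.35 whatever their genotype, and all were above every LSK library. In the spleen, Il1b was at 11.75 and 13.19 in MxCre, 7.80 and 9.91 in Ptpn11D61Y/+, and 9.58, 8.20 and 9.61 in S3 libraries, so that both MxCre libraries were above all others. The highest value corresponds to 427833 counts in spleen MxCre library 2. An antisense transcript, Il1bos, overlaps the gene, and the counting is not stated to use strand.

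Il1a (ENSMUSG00000027399; chromosome 2, 129299610 to 129309972) was near the limit of detection outside the spleen, with 5 to 48 counts in LSK libraries and 6 to 196 counts in BM CD11b+ libraries. Spleen CD11b+ libraries held 77 to 684 counts. Its level there was 2.66 and 3.87 log2 CPM in MxCre, 3.48 and 1.30 in Ptpn11D61Y/+, and 1.97, 1.78 and 0.65 in S3 libraries, and the highest BM value was 1.20 in S3 animal 640. The spleen and BM libraries overlapped only through this animal. Il1a, too, has an overlapping transcript on the other strand, Gm14023.

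The antagonists were abundant in CD11b+ cells and scarce in LSK cells. Il1rn (ENSMUSG00000026981; chromosome 2, 24336853 to 24351494) was at 0.98 and 1.44 log2 CPM in MxCre, -1.79 and -2.80 in Ptpn11D61Y/+, and -1.43, -0.73 and -0.38 in S3 LSK libraries. In BM CD11b+ cells it was at 8.47 and 6.08, at 6.52 and 6.09, and at 5.97, 3.73 and 6.95 in the same order of genotypes. S3 animal 640, with 3.73, was the lowest of them, although it was the highest BM library but for MxCre library 1 for Tnf. Spleen levels of Il1rn were 8.19 and 9.19 in MxCre, 5.84 and 5.37 in Ptpn11D61Y/+, and 6.43, 4.78 and 5.77 in S3 libraries.

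Il1r2 (ENSMUSG00000026073; chromosome 1, 40074079 to 40125231) followed the same pattern over the fractions. It was at 1.42 and 2.02 log2 CPM in MxCre, -0.34 and -0.09 in Ptpn11D61Y/+, and 0.09, 0.80 and 1.08 in S3 LSK libraries. BM CD11b+ levels were 11.32 and 7.43 in MxCre, 7.52 and 7.03 in Ptpn11D61Y/+, and 7.24, 6.38 and 7.35 in S3 libraries. BM MxCre library 2 was just above the S3 libraries and below 1 of the Ptpn11D61Y/+ libraries. In the spleen, Il1r2 was at 11.18 and 12.44 in MxCre, 6.42 and 7.48 in Ptpn11D61Y/+, and 7.14, 6.24 and 6.29 in S3 libraries, the widest gap between MxCre and the other genotypes among the 10 genes. Il1r2 overlaps Gm37347 on its own strand and Gm16894 on the other.

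Tnf (ENSMUSG00000024401; chromosome 17, 35199381 to 35202007) was present in all fractions. LSK levels were 4.65 and 4.30 log2 CPM in MxCre, 3.16 and 3.60 in Ptpn11D61Y/+, and 3.45, 2.87 and 3.22 in S3 libraries. BM CD11b+ levels of Tnf were 9.05 and 4.86 in MxCre, 5.97 and 6.02 in Ptpn11D61Y/+, and 5.30, 7.20 and 5.57 in S3 animals 540, 640 and 815. BM MxCre library 2, at 4.86, was the lowest of the fraction and library 1 the highest. In the spleen the levels were 9.46 and 9.93 in MxCre, 5.13 and 6.43 in Ptpn11D61Y/+, and 6.05, 7.51 and 6.52 in S3 libraries.

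Of the chemokines, Cxcl2 (ENSMUSG00000058427; chromosome 5, 90903871 to 90905938) varied most. It was at 3.36 and 2.74 log2 CPM in MxCre LSK libraries, 0.41 and 0.23 in Ptpn11D61Y/+, and -0.70, -2.71 and -0.24 in S3. BM CD11b+ levels were 11.32 and 5.42 in MxCre, 7.98 and 7.97 in Ptpn11D61Y/+, and 7.06, 7.61 and 4.23 in S3 libraries, the difference of 5.90 between the MxCre libraries being the largest of the 10 genes. Both Ptpn11D61Y/+ libraries exceeded all S3 libraries. Spleen levels were 11.08 and 12.50 in MxCre, 6.64 and 8.81 in Ptpn11D61Y/+, and 8.75, 8.69 and 5.76 in S3 libraries, and S3 animal 815 was the lowest S3 animal in both organs.

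Ccl3 (ENSMUSG00000000982; chromosome 11, 83647844 to 83649355) and Ccl4 (ENSMUSG00000018930; chromosome 11, 83662584 to 83664683) are neighboring genes on opposite strands. Ccl3 was at 6.50 and 6.24 log2 CPM in MxCre, 5.31 and 6.19 in Ptpn11D61Y/+, and 5.46, 4.65 and 5.20 in S3 LSK libraries. It was at 11.67 and 6.57, at 7.09 and 6.58, and at 7.41, 7.10 and 7.10 in the corresponding BM CD11b+ libraries. Without BM MxCre library 1, Ccl3 was therefore within a range of 1 log2 unit in BM CD11b+ cells. In the spleen it was at 10.27 and 10.13 in MxCre, 6.35 and 8.88 in Ptpn11D61Y/+, and 6.90, 7.59 and 7.47 in S3 libraries.

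Ccl4 was at 5.62 and 5.60 log2 CPM in MxCre, 4.49 and 4.93 in Ptpn11D61Y/+, and 4.72, 3.18 and 4.25 in S3 LSK libraries. BM CD11b+ levels were 10.09 and 5.26 in MxCre, 5.39 and 4.98 in Ptpn11D61Y/+, and 6.43, 7.04 and 6.55 in S3 libraries. All S3 libraries were thus above both Ptpn11D61Y/+ libraries and between the MxCre libraries. The spleen levels of Ccl4 were 9.09 and 8.60 in MxCre, 5.14 and 8.11 in Ptpn11D61Y/+, and 6.53, 6.93 and 7.19 in S3 libraries, with the Ptpn11D61Y/+ libraries on either side of the S3 libraries.

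Csf1 (ENSMUSG00000014599; chromosome 3, 107741048 to 107760469) differed least between LSK and BM CD11b+ cells in Ptpn11D61Y/+ and S3 mice. It was at 3.44 and 3.58 log2 CPM in MxCre, 3.93 and 4.41 in Ptpn11D61Y/+, and 4.17, 4.05 and 3.72 in S3 LSK libraries. The BM CD11b+ levels were 8.09 and 3.10 in MxCre, 4.06 and 4.47 in Ptpn11D61Y/+, and 4.08, 4.47 and 3.38 in S3 libraries. Csf1 was the only one of the 10 genes with lower levels in both MxCre LSK libraries than in any LSK library of the S3 and Ptpn11D61Y/+ groups. Its spleen levels were 7.96 and 8.99 in MxCre, 4.77 and 5.98 in Ptpn11D61Y/+, and 4.18, 3.48 and 3.73 in S3 libraries, which placed every S3 library below every Ptpn11D61Y/+ library.

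Acod1 (ENSMUSG00000022126; chromosome 14, 103046977 to 103056573) was scarce in LSK cells. LSK levels were between -2.04 and -0.68 log2 CPM in the 7 libraries. Acod1 in BM CD11b+ cells was at 7.32 and 2.37 in MxCre, 5.15 and 5.55 in Ptpn11D61Y/+, and 3.77, 5.30 and 1.60 in S3 libraries, and in the spleen at 9.33 and 11.30, at 6.07 and 6.46, and at 5.50, 6.63 and 3.14. S3 animal 815 was the lowest in both organs, as for Cxcl2.

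**Figure D1:**
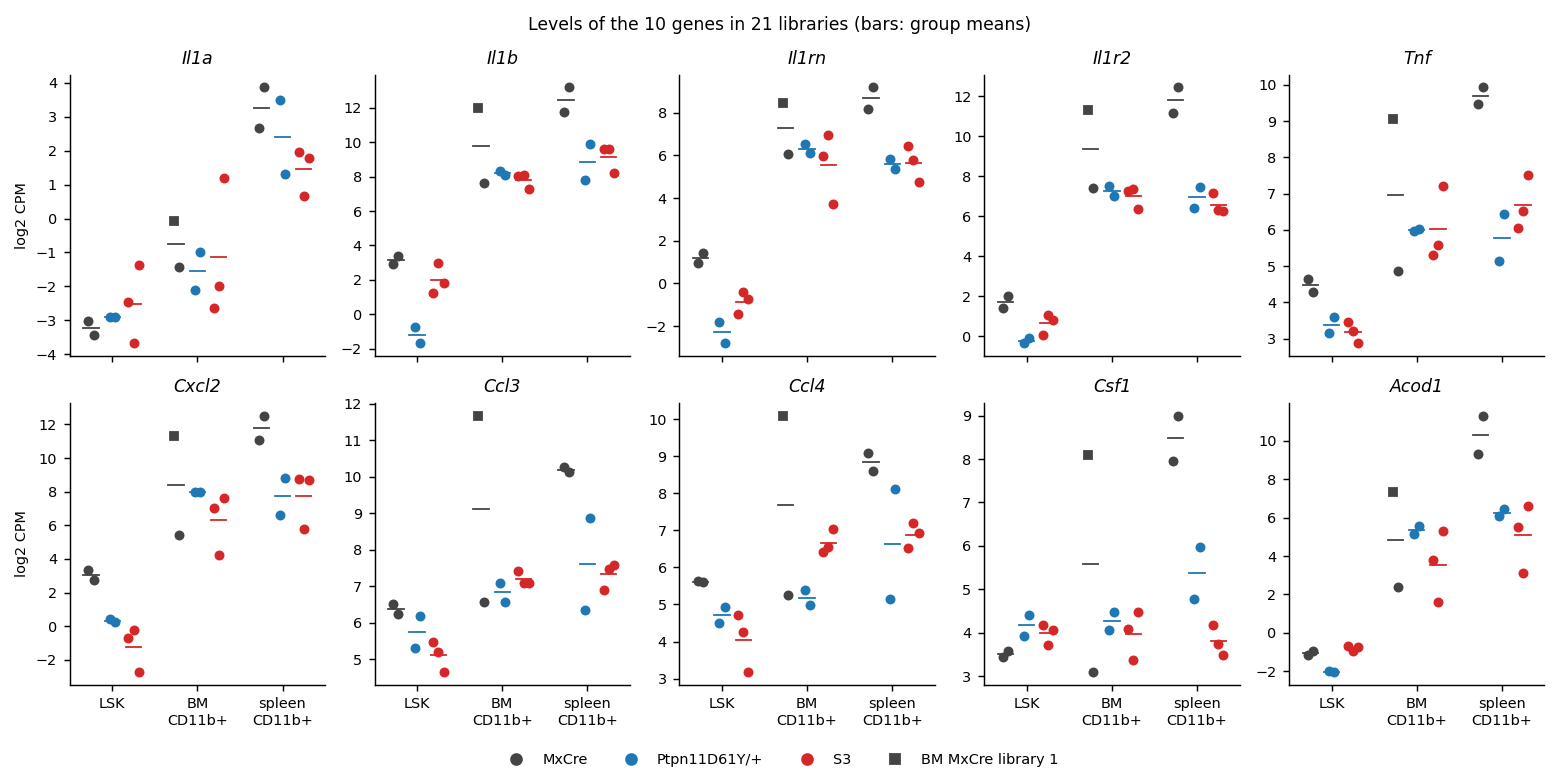
Level in log2 CPM (vertical axis, a separate scale per gene) of the 10 genes in the 21 libraries by fraction (horizontal axis) and genotype (color), with a bar at each group mean and BM MxCre library 1 drawn as a square. The square lies apart from the other BM CD11b+ libraries for every gene but Il1a. The spleen MxCre libraries are above the S3 libraries for all 10 genes (12.9% of all genes tested), a difference used to choose the list.

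Divided by the length of their exons, the genes could be ranked against each other within a group on the scale of log2 CPM per kilobase. In LSK cells of all genotypes the order began with Ccl3, Ccl4 and Tnf, at 6.76 ± 0.18, 6.21 ± 0.01 and 3.76 ± 0.25 in MxCre libraries (SD, n = 2). In the same libraries Il1b stood at 2.24 ± 0.33, Cxcl2 at 2.01 ± 0.44 and Il1r2 at 0.78 ± 0.42 (SD, n = 2), below Ccl3 and Ccl4. In BM CD11b+ cells of S3 mice the leading genes were Ccl3 at 7.59 ± 0.18, Ccl4 at 7.27 ± 0.33 and Il1b at 6.86 ± 0.47 (SD, n = 3), neighbors that did not differ beyond their spread. Il1b at 7.30 ± 0.17, Ccl3 at 7.22 ± 0.36 and Cxcl2 at 6.92 ± 0.0049 led in Ptpn11D61Y/+ mice (SD, n = 2), the first 2 again within their spread. In the spleen, Il1b was first in MxCre (11.54 ± 1.02, n = 2) and S3 mice (8.20 ± 0.81, n = 3) and second to Ccl3 by 0.08 in Ptpn11D61Y/+ mice. Il1a was last in 8 of the 9 groups, Il1rn being last in LSK cells of Ptpn11D61Y/+ mice, and Csf1 was ninth in all 6 CD11b+ groups.

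The comparison of CD11b+ with LSK cells asked which of the genes separate mature myeloid from stem and progenitor cells, and was tested in the BM. The choice of the list used spleen libraries, but S3 animals 540, 815 and 640 gave both BM and spleen CD11b+ libraries. The BM values of S3 mice are therefore not independent of the choice. In the fit of all libraries, Il1b, Il1rn, Il1r2, Cxcl2 and Acod1 were called higher in BM CD11b+ cells in each genotype. Acod1 lost the call in S3 mice with the animal as a block, at 3.59 (edgeR adjusted p = 0.0636), where the fold rests on animals 540 and 815. In MxCre mice, Cxcl2 at 2.31 and Acod1 at 3.46 lost the call without BM MxCre library 1. In Ptpn11D61Y/+ mice these same genes lost it without either LSK library. In Ptpn11D61Y/+ mice, 5 of the 10 genes were called higher, against 10.8% of all genes tested, and none lower. The log2 fold change was 9.43 ± 1.39 for Il1b (adjusted p = 0.000315), 8.69 ± 1.15 for Il1rn (adjusted p = 0.000143) and 7.55 ± 1.06 for Il1r2 (adjusted p = 0.000211), where ± is the SE of the edgeR fit on 2 libraries a group. Acod1 at 7.53 ± 1.58 and Cxcl2 at 7.68 ± 1.75 passed as well (edgeR adjusted p = 0.00428 and 0.00714). Tnf at 2.60, Il1a at 1.64, Ccl3 at 1.05, Ccl4 at 0.48 and Csf1 at 0.09 did not pass, although the groups did not overlap for the first 4 of these (40.8% of all genes were higher without overlap). Without LSK library 1 or 2 of this genotype, 3 of the 10 genes were called, in fits that called 1144 and 1167 genes in either direction in place of 3844.

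In S3 mice, 7 of the 10 genes were called higher in BM CD11b+ than in LSK cells, against 14.4% of all genes tested. The log2 fold change was 7.82 ± 1.45 for Cxcl2, 6.91 ± 0.87 for Il1rn, 6.35 ± 0.82 for Il1r2 and 5.66 ± 0.96 for Il1b (edgeR adjusted p = 0.00143, 7.9e-05, 9.37e-05 and 0.000808). Acod1 at 5.08 ± 1.15, Tnf at 3.09 ± 0.77 and Ccl4 at 2.52 ± 0.83 also rose (edgeR adjusted p = 0.00526, 0.00881 and 0.0342), with the call of Ccl4 lost in each of the 6 fits with a library left out. Ccl3 at 2.07, Il1a at 2.23 and Csf1 at 0.05 did not pass. Without the BM library of animal 640, Il1a was at -0.0864. Animals 540 and 815 gave libraries of both fractions, and a fit with the animal as a block takes its fold changes from these animals alone. The BM library of animal 640 and the LSK library of animal 768 have no part in them. Pairing and the loss of these libraries thus cannot be told apart. In this fit 4 of the genes were called, with 2100 of 19555 genes higher and 2835 lower. Tnf at 2.10, Ccl4 and Acod1 at 3.59 were then lost (edgeR adjusted p = 0.0977, 0.169 and 0.0636).

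In MxCre mice, 9 of the 10 genes were called higher in BM CD11b+ cells, against 16.6% of all genes tested, and none lower, against 20.3%, with log2 fold changes of the 9 from 3.53 ± 1.06 for Ccl4 to 8.68 ± 1.11 for Il1r2. The fit follows the arithmetic mean of a group and so its higher library. Without BM MxCre library 1, 3 genes were called, namely Il1b at 4.40, Il1rn at 4.84 and Il1r2 at 5.67, and Ccl4 and Csf1 turned to -0.37 and -0.43. Without library 2, 9 genes were called, and without either LSK library 4. In either direction, the fits called 3121 genes without BM library 1, 7002 without BM library 2 and 2863 to 2942 without an LSK library, in place of 7221. With all libraries of both groups kept, limma-voom called 5 of the 10 genes higher, as part of 2973 of 19555 genes. A fit with the replicate number as a block called 5 as part of 2721. One of only the groups compared called 1 as part of 1929 of 16871. The erythroid marker list, led by globin genes, summed to 50073 CPM in BM MxCre library 1 and to 224139 CPM in library 2, and its part in these differences was not tested.

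In the spleen, the comparison was tested in Ptpn11D61Y/+ mice, which the choice of the list had not used. Compared to LSK cells, 6 of the 10 genes were called higher in spleen CD11b+ cells, against 10.4% of all genes tested. The 5 genes called in BM CD11b+ cells of this genotype were joined by Il1a, at a log2 fold change of 5.94 ± 1.41 (edgeR adjusted p = 0.00965). Il1b reached 10.40 ± 1.45, Acod1 8.45 ± 1.64, Il1rn 7.99 ± 1.12, Cxcl2 7.80 ± 1.76 and Il1r2 7.30 ± 1.05 (edgeR adjusted p = 0.000282, 0.00284, 0.000306, 0.00724 and 0.000348). Ccl4 at 2.56, Tnf at 2.52, Ccl3 at 2.30 and Csf1 at 1.31 did not pass. This comparison and the one with BM CD11b+ cells share their LSK libraries. Without LSK library 1 or 2, 3 of the genes were called, in fits that called 934 and 943 genes in place of 3542, and the call of Il1a was lost in 3 of the 4 fits with a library left out.

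**Figure D2:**
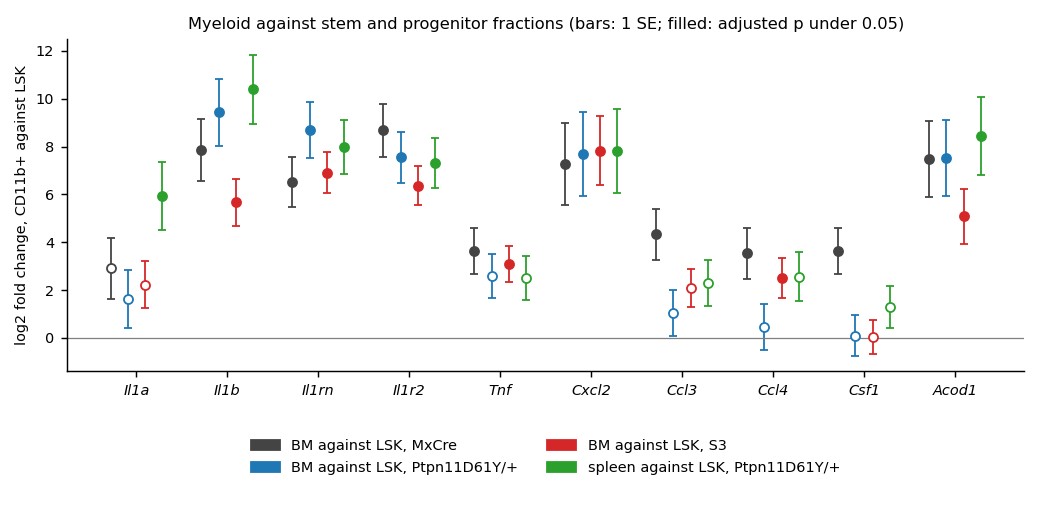
Log2 fold change of CD11b+ over LSK cells (vertical axis) for the 10 genes (horizontal axis) in the 4 tested comparisons (color), with bars of 1 SE and filled points where the adjusted p is under 0.05. Il1b, Il1rn, Il1r2, Cxcl2 and Acod1 are filled in all comparisons, and Csf1 is filled only in MxCre mice. Without BM MxCre library 1, the values in MxCre mice were -0.43 for Csf1, 2.31 for Cxcl2 and 3.46 for Acod1. With the animal as a block, which rests on animals 540 and 815, Acod1 did not pass in S3 mice.

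Between spleen and BM CD11b+ cells of Ptpn11D61Y/+ mice, none of the 10 genes was called, while 722 of 19555 genes (3.69%) were, a number that fell to between 0 and 69 with any 1 of the 4 libraries left out. Il1a was 4.30 ± 1.31 higher in the spleen on the log2 scale (edgeR adjusted p = 0.0737), and both spleen libraries were above both BM libraries, as for Csf1 and Acod1 (32.2% of all genes), while for Il1rn both were below (31.2%). The other genes differed by -0.70 for Il1rn to 2.08 for Ccl4. Spleen library 1, at 5.14, was within the BM range for Ccl4, and the median of the 10 genes turned from 0.95 to -0.47 without spleen library 2. Beside these values, 9 of 12 mature neutrophil markers and 7 of 7 immature neutrophil markers were called lower in the spleen, against 2.46% of all genes. None of these calls was kept in every fit with a library left out. In S3 mice, whose spleen values chose the list, Il1a was 1.72 higher in spleen than in BM CD11b+ cells, as a description. Its BM levels were -2.63, -1.98 and 1.20 log2 CPM in animals 540, 815 and 640, so that animal 640 narrowed this difference.

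The comparison of S3 with MxCre mice asked how the leukemic genotype differs from its control. The S3 animals of the BM CD11b+ libraries are those whose spleen libraries were used to choose the list. In BM CD11b+ cells no gene of 19555 was called (0%), and none of the 10, although 3022 genes (15.5%) had an unadjusted p under 0.05, and DESeq2 called 965 genes, among them 5 of the 10 as lower. The fitted log2 fold change was -3.50 ± 0.88 for Ccl3, -3.49 ± 1.23 for Cxcl2, -3.37 ± 0.74 for Il1r2, -3.19 ± 0.90 for Il1b and -3.09 ± 0.80 for Csf1, with edgeR adjusted p between 0.141 and 0.237. Tnf at -1.85, Ccl4 at -2.44, Il1rn at -1.66 and Acod1 at -2.13 lay in the same direction. Il1a was at 0.50, which turned to -1.82 without S3 animal 640. The median of the 10 genes was -2.76, and that of all genes tested was 0.18. Only Il1r2 had all S3 libraries below both MxCre libraries, which held for 5.49% of all genes tested.

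These values depended on which MxCre library was kept. Without BM MxCre library 1, the median of the 10 genes was 1.18, 8 of the 10 values were positive and none was called. Tnf was then at 1.43, Cxcl2 at 1.45, Ccl4 at 1.45 and Acod1 at 1.88. Without BM MxCre library 2, 7 of the 10 genes were called lower in S3 mice in a fit that called 2040 of 19555 genes in either direction, with Cxcl2 at -4.45 (edgeR adjusted p = 0.0207), Ccl3 at -4.45, Il1r2 at -4.26, Il1b at -4.11, Csf1 at -4.03, Ccl4 at -3.38 and Tnf at -2.75. In both fits the lone library is assumed to vary like those of the other groups. The sign of the difference thus depended on which MxCre library was kept for 8 of the 10 genes, and stayed negative for Il1r2 (-0.37 and -4.26) and Il1rn (-0.0147 and -2.40).

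**Figure D3:**
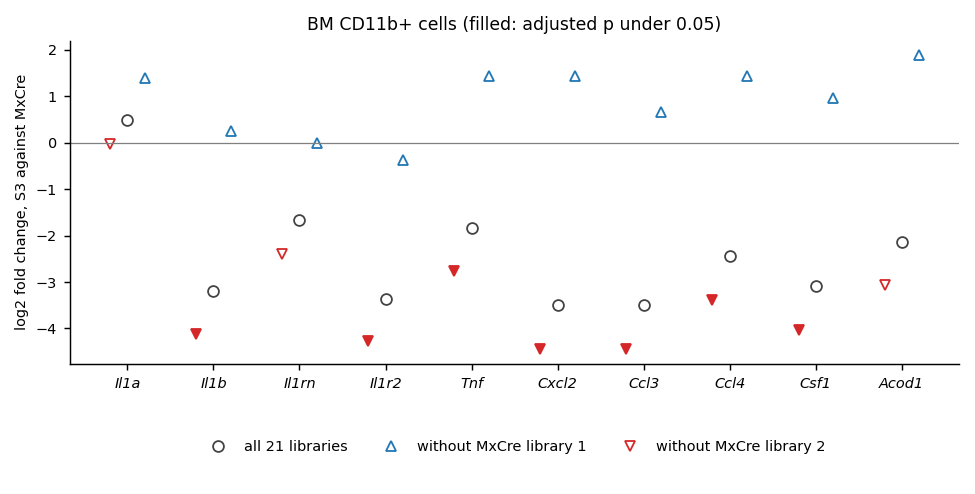
Log2 fold change of S3 over MxCre BM CD11b+ cells (vertical axis) for the 10 genes (horizontal axis) with all 21 libraries (circles), without MxCre library 1 (triangles pointing up) and without MxCre library 2 (triangles pointing down), filled where the adjusted p is under 0.05. Leaving out library 1 moved the median from -2.76 to 1.18, and 7 genes are filled without library 2.

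The libraries of Ptpn11D61Y/+ mice gave fold changes that rest on neither MxCre library. Their SE and calls still depend on both, because the spread of a gene was estimated over all 21 libraries. In BM CD11b+ cells, S3 and Ptpn11D61Y/+ libraries differed by -1.13 ± 1.06 for Acod1 to 1.50 ± 0.92 for Ccl4, with a median of -0.24, and no gene of 19555 was called (0%, with 8.22% at an unadjusted p under 0.05). Ccl3 and Ccl4 were higher and Cxcl2 was lower in all S3 libraries, against 7.97% and 18.2% of all genes. Against the same MxCre libraries as above, Ptpn11D61Y/+ libraries gave a median of -2.58 and no call among 19555 genes (0%, with 22.6% at an unadjusted p under 0.05), from -3.94 ± 1.08 for Ccl4 to -0.88 ± 1.19 for Il1a. Without BM MxCre library 2, 6 of the genes were called lower in Ptpn11D61Y/+ mice, as part of 2852 genes called in either direction, and without library 1 the median was 0.48.

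In spleen CD11b+ cells, all 10 genes were lower in every S3 library than in both MxCre libraries, a pattern found for 12.9% of all genes tested and used for the choice of the list. The log2 fold change was -5.32 for Il1r2, -4.96 for Acod1, -4.74 for Csf1, -3.73 for Cxcl2, -3.38 for Il1b, -2.97 for Il1rn, -2.89 for Tnf, -2.85 for Ccl3, -1.96 for Ccl4 and -1.82 for Il1a. Their median was -3.18, beside 0.32 for all genes. Ptpn11D61Y/+ libraries, set against the same MxCre libraries, had a median of -3.29, from -4.90 for Il1r2 to -0.62 for Il1a, and 9 of the 10 genes did not overlap (21.4% of all genes), with Il1a as the exception. Between S3 and Ptpn11D61Y/+ spleens the values ran from -1.67 for Csf1 to 0.90 for Tnf, and only Csf1 had all S3 libraries lower (12.2% of all genes). The mature neutrophil markers were lower in Ptpn11D61Y/+ spleens than in those of either other genotype, as given above, and their part in these differences was not tested.

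In LSK cells, none of the 10 genes was called between genotypes in the edgeR fit of all libraries. That fit estimates the spread of a gene over all 21 libraries, the CD11b+ ones included, so its calls are not a result of LSK libraries alone. Fits of only the groups compared take the spread from LSK libraries and called 4700 genes between S3 and MxCre mice (4 of the 10 lower). They called 2508 between Ptpn11D61Y/+ and MxCre mice (6 lower, 1 higher) and 5223 between S3 and Ptpn11D61Y/+ mice (2 higher). Between S3 and MxCre mice, 6 genes of 19555 were called (0.0307%) and none of the 10. Cxcl2 was at -4.05 ± 1.27 (edgeR adjusted p = 0.781) and Il1rn at -2.07 ± 0.76 (adjusted p = 0.970). Tnf, Il1rn, Il1r2, Cxcl2, Ccl3 and Ccl4 were lower in every S3 library, which held for 28.9% of all genes tested, and Csf1 was higher (29.1%). Between Ptpn11D61Y/+ and MxCre mice, 12 genes were called (0.0614%) and none of the 10, with Il1b at -4.38 ± 1.12 and Il1rn at -3.58 ± 0.93 (edgeR adjusted p = 0.346 and 0.386). The libraries of these 2 groups did not overlap for any of the 10 genes, with Il1a and Csf1 higher (28.3% of all genes) and the other 8 lower in Ptpn11D61Y/+ mice (29.4%). Between S3 and Ptpn11D61Y/+ mice, 19 genes were called (0.0972%), again none of the 10, and Il1b was 3.37 ± 1.04 higher in S3 (edgeR adjusted p = 0.459). Il1b, Il1rn, Il1r2 and Acod1 were higher in every S3 than in every Ptpn11D61Y/+ library (32% of all genes) and Cxcl2 was lower (27.5%). With 1 library left out, these 3 comparisons called 0 to 3, 0 to 8 and 0 to 42 genes.

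The neutrophil marker sums of LSK libraries were highest in MxCre mice, as given above. Of these markers, Mmp8 and Mmp9 were called lower in S3 than in MxCre LSK cells, and Ly6g, Mmp9, Ltf, Mmp8, Lcn2 and Ngp in Ptpn11D61Y/+ than in MxCre LSK cells. Both calls of the former comparison were lost without S3 animal 540 or 768, and they did not both hold without MxCre library 1 or without library 2. Those of the latter were lost without either Ptpn11D61Y/+ library. The 19 immediate-early genes summed to 15637 and 13296 CPM in MxCre, 10750 and 11648 CPM in Ptpn11D61Y/+, and 4012, 4238 and 1432 CPM in S3 LSK libraries, with none called in either comparison with MxCre. The part of neutrophils and of these genes in the LSK levels of the 10 genes was not tested. The genotype difference did not differ between BM CD11b+ and LSK cells for any gene at the threshold (0 of 19555, 0%, in edgeR, with 8.12% at an unadjusted p under 0.05 and 141 genes called by DESeq2), and the differences of the 10 genes had a median of -1.60 and ran from -3.57 ± 1.15 for Csf1 to 0.56 ± 1.69 for Cxcl2. That median turned to 1.74 without BM MxCre library 1, with no gene called, and was -2.54 without library 2, with 2 of the 10 and 438 genes in all called.

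The other genes of the IL-1 pathway were examined as a list of 20. In Ptpn11D61Y/+ mice, 5 were higher and 1 lower in BM CD11b+ than in LSK cells, against 10.8% and 8.84% of all genes tested. In spleen CD11b+ cells 8 were higher and 1 lower, against 10.4% and 7.74%, both comparisons sharing the LSK libraries. Il1r1, the signaling receptor, was the gene that fell, by 3.14 in BM and by 3.27 in spleen CD11b+ cells on the log2 scale (edgeR adjusted p = 0.0276 and 0.0251). With 1 library left out, the BM call was lost in 4 of 4 fits and the spleen call in 3 of 4. It was also lower in BM CD11b+ cells of S3 and MxCre mice, at -3.39 and -5.50 (edgeR adjusted p = 0.00540 and 0.00177), calls kept with any 1 library left out. Il1rap, the co-receptor, was at -0.21 and -0.88 and did not pass. The inflammasome sensor Nlrp3 rose by 5.77 and 6.28, its adaptor Pycard by 1.47 and 2.04, and the receptor adaptors Irak2 and Myd88 by 1.97 and 1.87 in BM and by 2.29 and 2.17 in spleen CD11b+ cells. Irak2 and Myd88 kept their calls in all fits with a library left out, whereas Nlrp3 lost them without either LSK library and Pycard lost that in the BM without LSK library 2. In the fit of all libraries, both myeloid fractions of this genotype thus held more Il1b, Il1rn, Il1r2, Nlrp3, Pycard, Irak2 and Myd88, and less Il1r1, than LSK cells. Not all members rose. Irak1 held 3825 and 4876 counts in BM CD11b+ libraries and 25310 and 20998 in LSK libraries, before scaling. Sigirr held 1296 and 1220 against 8169 and 7350, and neither gene was called. The median of the list was 0.68 in BM and 0.87 in spleen CD11b+ cells, beside -0.04 and -0.08 for all genes.

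Of 17 other TNF pathway genes, 3 were higher in BM (10.8% of all genes) and 8 in spleen CD11b+ cells (10.4%) of Ptpn11D61Y/+ mice than in LSK cells, and none was lower. Rhbdf2, which helps the TNF-shedding protease mature, rose by 2.51 and 2.02, and Birc3, an NF-kB-induced ubiquitin ligase, by 1.79 and 2.47. Traf1 and Tnfsf9 were 3.69 and 2.53 higher in spleen than in BM CD11b+ cells (edgeR adjusted p = 0.0358 and 0.0412), but both calls were lost in each of the 4 fits with a library left out, and Tnfsf9 was at 1.35 without spleen library 2. In such fits Rhbdf2 was lost in all 4 for either organ, and Birc3 in 3 of 4 for the BM. Of 18 other chemokines, 8 were higher in BM and 12 in spleen CD11b+ cells, against the same shares of all genes, and none was lower (8.84% and 7.74%). Ccl7 and Ccl12 were called on 0 or 1 counts in the LSK libraries of this genotype and are given without a fold. Ccl6 rose by 5.17 and 5.03, Ccl2, which attracts monocytes, by 6.90 and 6.29, and Ccl5 by 5.06 and 6.75. Ccl22, a ligand of Ccr4, was 4.22 higher in spleen than in BM CD11b+ cells (edgeR adjusted p = 0.0412), a call lost in all 4 fits with a library left out. The calls of Ccl2 and Ccl6 were kept in all such fits, with Ccl2 at 3.69 without spleen library 2, and those of Ccl5 were lost without either LSK library.

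The receptors Ccr1, Cxcr2 and Csf1r were higher in the same myeloid cells. In Ptpn11D61Y/+ mice, Ccr1 rose by 6.38 in BM and by 4.59 in spleen CD11b+ cells, and Cxcr2 by 5.74 and 3.74. Csf1r was 3.01 higher in BM and 5.42 higher in spleen CD11b+ cells (edgeR adjusted p = 0.0171 and 0.00106), and was the only called gene among the 6 tested genes of the CSF axis in either comparison (10.8% and 10.4% of all genes were higher). Csf1 itself did not pass in either. With 1 library left out, the call of Csf1r was lost in all 4 fits for the BM and in none for the spleen, that of Cxcr2 in 3 of 4 for the spleen, and that of Ccr1 in none.

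Of 12 other genes of inflammatory metabolism, 4 rose in BM (10.8% of all genes) and 5 in spleen CD11b+ cells (10.4%) of Ptpn11D61Y/+ mice. The cystine transporter Slc7a11 rose by 4.33 and 4.73 and the heme oxygenase Hmox1 by 3.56 and 7.34. Of 11 NF-kB subunits and inhibitors, 5 rose in BM and 9 in spleen CD11b+ cells, against the same shares, and none fell (8.84% and 7.74% of all genes). The inhibitor Nfkbia rose by 3.01 and 3.23, Rel by 2.10 and 3.52, and Relb by 1.94 and 4.91. Relb was also 2.97 higher in spleen than in BM CD11b+ cells (edgeR adjusted p = 0.0226), a call lost in all 4 fits with a library left out. Such fits also lost the BM calls of Hmox1, Nfkbia, Rel and Relb in 4 of 4 and the spleen call of Nfkbia in 3 of 4 (2.13 without spleen library 2), and kept those of Slc7a11 in both organs and of Hmox1, Rel and Relb in the spleen. Of 19 immediate-early genes, 4 rose in BM and 6 in spleen CD11b+ cells (10.8% and 10.4% of all genes), among them Atf3 by 5.38 and 6.65 and Klf2 by 3.42 and 3.67, while Myc fell by 2.60 and by 1.80. Atf3 and Klf2 lost their calls without either LSK library, Klf2 in the spleen also without spleen library 2 (2.04), and Myc lost that in the BM without BM library 1 and that in the spleen in all 4 fits. Of 9 regulators that bind or degrade mRNAs with AU-rich elements, such as those of Tnf and Cxcl2, none rose in Ptpn11D61Y/+ mice. Tia1 fell by 1.32 and by 1.83 (8.84% and 7.74% of all genes were lower), the former lost in 2 of 4 fits with a library left out. In S3 mice, however, Zfp36 and Zc3h12a were called higher in BM CD11b+ than in LSK cells (14.4% of all genes). With 1 library left out, they ranged from 1.82 to 2.41 and from 0.25 to 2.44, the calls being lost in 1 and 4 of 6 fits.

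The lists of NF-kB, immediate-early and macrophage genes were also summed in each library. The 10 genes together held 14775 CPM in BM MxCre library 1, 11583 and 26771 CPM in the spleen MxCre libraries, 652 to 2613 CPM in the other CD11b+ libraries and 65 to 199 CPM in LSK libraries. The NF-kB list held 6499, 10508 and 19204 CPM in the same 3 libraries and 690 to 3667 CPM in the other CD11b+ libraries. Immediate-early genes, with Junb the most abundant in 7 of the 14 CD11b+ libraries, held 41183, 56111 and 52311 CPM, and 31110 CPM in spleen Ptpn11D61Y/+ library 2, against 6530 to 14302 CPM in the remaining CD11b+ libraries. The macrophage list, with C1qa the most abundant in 7 of the 14 CD11b+ libraries, held 16931 CPM in BM MxCre library 1 and 566 CPM in BM MxCre library 2, with 461 to 2694 CPM in the other BM CD11b+ libraries. None of the 10 macrophage markers was at 0 in any library. In the spleen, macrophage markers reached 6278 and 5356 CPM in MxCre libraries, within the 2580 to 8572 CPM of the other genotypes. Immature neutrophil markers, led by Mpo, stood at 1008 CPM in BM MxCre library 1 and at 2885 to 5404 CPM in the other BM CD11b+ libraries. The part of macrophage content, of the immediate-early response and of RNA quality in the levels of the 10 genes was not tested.

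**Figure D4:**
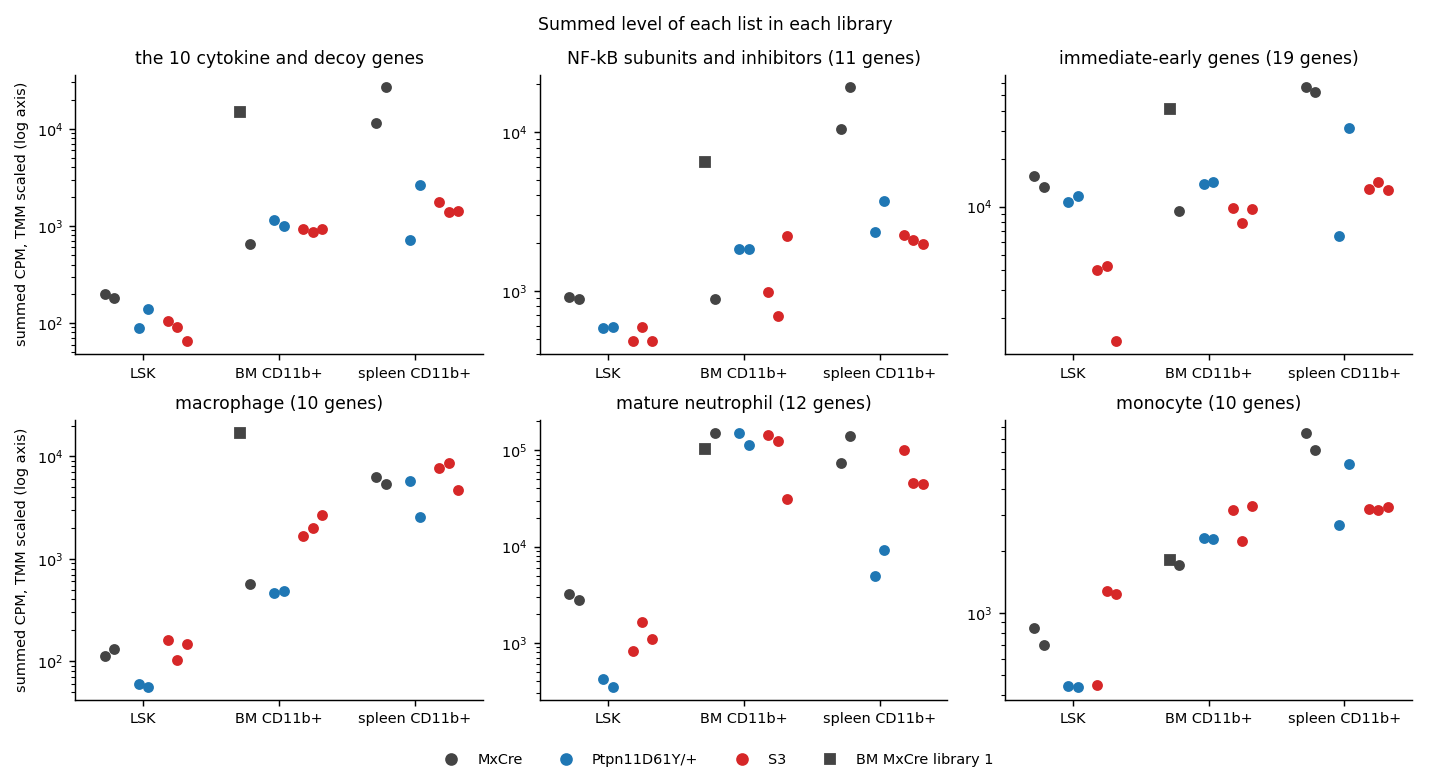
Summed level of 6 gene lists in CPM (vertical axis, logarithmic) in the 21 libraries by fraction (horizontal axis) and genotype (color), with BM MxCre library 1 drawn as a square. This library stands above the other BM CD11b+ libraries for the 10 genes, the NF-kB list, the immediate-early list and the macrophage list, and not for the mature neutrophil and monocyte lists.

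Across the 14 CD11b+ libraries, the genes most like the mean of the 10 standardised levels were Col11a2 (r = 0.975), Nfkbia (r = 0.971) and Tlr2 (r = 0.960), followed by Myadm, Ptafr, Irak2, Gm15832, Tlr6, Csnk1e and Rara. For single genes the most similar were Nlrp3 for Acod1 (r = 0.981), Sirpb1b for Il1b (r = 0.976), Hcar2 for Cxcl2 (r = 0.974) and Tmem189 for Il1r2 (r = 0.972). Il15 was most similar to Il1rn (r = 0.961), Soat2 to Tnf (r = 0.960), Arhgap26 to Csf1 (r = 0.965), Prex1 to Il1a (r = 0.955), Gdf15 to Ccl3 (r = 0.954) and Ccl3 to Ccl4 (r = 0.944). These correlations describe 14 libraries that share 3 high ones. Over the 45 pairs of the 10 genes the median r was 0.795, from 0.158 to 0.944, and it was 0.243, from -0.699 to 0.898, over the 11 libraries left without BM MxCre library 1 and both spleen MxCre libraries.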

How the data were processed

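The authors isolated RNA with a column kit, prepared libraries with a TruSeq kit that the methods describe as stranded, and trimmed the paired-end reads with Trim Galore 0.6.5 before mapping to GRCm38 (mm10) with STAR 2.5.3a, per the labels and methods. They deposited a table of raw counts per Ensembl gene for each library, without normalization. The counting program, the annotation and the use of strand are not given in the sources used here.

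Analysis of these counts used edgeR 4.0.16 under R 4.3.3. The filterByExpr function, given the 9 groups (minimum count 10, minimum total 15), retained 19555 genes with 99.99% of the counts. A robust quasi-likelihood fit with TMM factors covered all 21 libraries with 1 coefficient per group and 12 residual degrees of freedom. The SE and calls of each comparison thus also depend on the spread in libraries outside it. Standard errors were obtained by dividing each estimate by the root of its F value. Library totals had a median of 69421661, and the deepest held 2.99 times the counts of the shallowest. No pair of libraries was identical (highest correlation 0.9939). The methods name 3 mice per genotype for MxCre and S3 CD11b+ cells, while each control group has 2 libraries, and the labels tie no control library to a mouse, so p-values may measure only the spread between libraries. Alternatives were DESeq2 1.42.0, limma-voom (limma 3.58.1), RLE factors, library sizes alone, no or a stricter count filter, only the groups compared, 1 library left out, and the replicate number as a block. The fit was tested on simulated data, the outcome of which is not given here.

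The 10 genes and the pathway and marker lists were chosen with earlier results of these data known. All 10 genes were named, and from a pathway list at most 5 of the called genes with larger changes plus receptors. Which of these were named was settled after their values were seen. Likeness is Pearson's r over the 14 CD11b+ libraries for genes averaging 3 log2 CPM or more. Gene positions are from a GRCm38 annotation and promoters from RefSeq (GRCm38.p6). Results for some genes of these lists are not reported here.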

Additional observations from a re-analysis of the deposited data

Results flagged for a closer look

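Csf1, the macrophage growth factor, had fold changes of opposite sign in LSK and spleen CD11b+ cells. In S3 against MxCre mice its log2 fold change was 0.49 in LSK cells, where every S3 library was higher, and -4.74 in spleen CD11b+ cells, where every S3 library was lower, a difference of -5.23. In Ptpn11D61Y/+ against MxCre mice the values were 0.68 and -3.07, a difference of -3.75, with the same separation of libraries. In LSK cells such separation held for 29.1% and 28.3% of all genes, and in the spleen for 12.9% and 21.4%. Both contrasts share the MxCre libraries, the spleen values were used in choosing the genes, and the difference was not tested. Csf1 in LSK cells did not pass the test in either contrast (edgeR adjusted p = 1.0).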

How the results depend on the processing

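Among single-gene values under an alternative, 1936 kept their direction and their side of the threshold, 335 lost the call, 43 gained it, 27 turned and 13 moved by more than the spread between libraries, and the cause was not tested. In S3 against MxCre BM CD11b+ cells, DESeq2 called 5 of the 10 genes lower (none in the edgeR fit), and Il1a was at -0.32 in limma-voom. DESeq2 also called 5 lower in Ptpn11D61Y/+ against MxCre BM CD11b+ cells, 1 lower in S3 and 2 lower in Ptpn11D61Y/+ against MxCre LSK cells, 1 higher in S3 against Ptpn11D61Y/+ LSK cells, and 1 higher in spleen against BM CD11b+ cells of Ptpn11D61Y/+ mice. Fits of only the groups compared called 4 lower in S3 against MxCre LSK cells, 6 lower and 1 higher in Ptpn11D61Y/+ against MxCre LSK cells, 2 higher in S3 against Ptpn11D61Y/+ LSK cells, 2 higher in spleen against BM CD11b+ cells of Ptpn11D61Y/+ mice, and 1 (MxCre) and 8 (Ptpn11D61Y/+) higher in BM CD11b+ against LSK cells, where all libraries gave 9 and 5. In MxCre mice limma-voom called 5. For BM CD11b+ against LSK cells in Ptpn11D61Y/+ mice, Csf1 was at -0.0796 in DESeq2, at -0.0795 with RLE factors and at -0.78 with library sizes alone, which put Ccl4 at -0.41. In S3 mice, Csf1 was at -0.47 with library sizes alone and at -0.0017 without a filter. Library sizes alone put Il1a at 0.12 in Ptpn11D61Y/+ against MxCre spleens. They moved the median of all genes in BM CD11b+ against LSK cells to -1.34, -0.92 and -0.64 (MxCre, Ptpn11D61Y/+ and S3), and the calls in MxCre mice to 1512 higher and 7488 lower from 3251 and 3970. With at least 10 counts in every library, which left out Il1a, the median in S3 against Ptpn11D61Y/+ LSK cells was -0.23 in place of 0.30. With 1 library left out, S3 against MxCre BM CD11b+ cells ranged from -2.75 to 1.43 for Tnf, -1.82 to 1.39 for Il1a, -4.11 to 0.25 for Il1b, -4.45 to 1.45 for Cxcl2, -4.45 to 0.65 for Ccl3, -3.38 to 1.45 for Ccl4, -4.03 to 0.96 for Csf1 and -3.30 to 1.88 for Acod1, with 0 to 7 genes called lower and a median of -3.70 to 1.18. Ptpn11D61Y/+ against MxCre BM CD11b+ cells gave 0 to 6 lower and a median of -3.52 to 0.48. BM CD11b+ against LSK cells gave 3 to 9 higher in MxCre mice, with Ccl4 from -0.37 to 4.45 and Csf1 from -0.43 to 4.55, and 3 to 5 in Ptpn11D61Y/+ mice, with Csf1 from -0.15 to 0.33, while in S3 mice Il1a ranged from -0.0864 to 3.06 and Csf1 from -0.22 to 0.29. Spleen against LSK cells of Ptpn11D61Y/+ mice gave 3 to 6 higher. The difference between BM CD11b+ and LSK cells gave 0 to 2 lower, with a median of -2.54 to 1.74. Il1a in Ptpn11D61Y/+ against MxCre spleens ranged from -2.06 to 0.12. Medians ranged from -0.0524 to 0.42 in S3 against Ptpn11D61Y/+ LSK cells, -0.47 to 1.35 in spleen against BM CD11b+ cells of Ptpn11D61Y/+ mice, and -0.71 to 0.61 in S3 against Ptpn11D61Y/+ spleens.

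In S3 against MxCre, Ptpn11D61Y/+ against MxCre and S3 against Ptpn11D61Y/+ BM CD11b+ cells, DESeq2 called 965, 1864 and 256 genes, limma-voom 23, 7 and 3, and the edgeR fit of all libraries none. Without BM MxCre library 2 the first 2 of these contrasts had 2040 and 2852 genes. In the same contrasts of LSK cells, DESeq2 called 128, 103 and 248 genes and fits of the LSK libraries alone 4700, 2508 and 5223, against 6, 12 and 19. In Ptpn11D61Y/+ mice, fits of the groups compared called 12583 genes for BM against LSK, 9177 for spleen against LSK and 4265 for spleen against BM, against 3844, 3542 and 722, and leaving out 1 library gave 1144 to 1464, 934 to 1673 and 0 to 69.

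With the replicate number as a block, 5 genes in place of 9 were called in BM CD11b+ against LSK cells of MxCre mice. In S3 mice, where the blocked fold changes rest on animals 540 and 815, it was 4 in place of 7, with Csf1 at -0.22. The block changed no other count of the 10 genes by more than 1.5 times, and it gave 324 genes in place of 722 in spleen against BM CD11b+ cells of Ptpn11D61Y/+ mice. By the labels the numbers pair only S3 libraries, and deviations of control libraries with the same number correlated between -0.17 and 0.06. For both comparisons of BM CD11b+ cells in Ptpn11D61Y/+ mice the correlation was under -0.1, and a crossed pairing, chosen after seeing the data, called 3130 genes against LSK cells and 464 against spleen cells. No paired analysis was possible because of a lack of shared numbers wherever S3 libraries are set against a control genotype.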
